A study of Mus musculus with 12 samples.

Results

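The proteasome is the cell's main protease for proteins tagged with ubiquitin, and its genes are described here in CD8 T cells during the response to a bacterial infection. Members were the protein-coding genes of the deposited count table whose symbol is Psm followed by a letter from a to g and a digit, which gave 50 of 55421 genes. The filter on low counts left 48 of them among 14460 tested genes. The testis-specific *Psma8* had 0 counts in all libraries. *Psmb11*, the thymic epithelial catalytic subunit, had 9 counts over the 12 libraries, with a highest count of 7. Neither gene was tested. A pair of tested members are no distinct subunits: *Psmc3ip* encodes a meiotic recombination factor and is named only for its binding to an ATPase subunit, and *Psme2b* is a copy of *Psme2*. They stay in all counts of members.

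RNA came from OT-I cells, which are CD8 T cells of a mouse line with a transgenic T cell receptor for an ovalbumin peptide. They carried a knockout (KO) or the wild-type form (WT) of Rroid2, were transferred into host mice given *Listeria monocytogenes* expressing ovalbumin (LM-OVA), and were sorted from spleen. There were 6 groups of 2 libraries: KO and WT MPEC on day 14 after infection, KO and WT SLEC on day 14, and KO and WT SLEC on day 7. MPEC and SLEC are the memory precursor and the short-lived effector population of the CD8 response. All groups shared the OT-I receptor and the infection, and no group was uninfected. The labels give neither the kind of deletion, the age of the animals, the sort gates nor whether the libraries of a group came from separate animals. The p-values therefore measure the spread between libraries, which may be technical. *Rroid2* has no row of that name in the table, so the deletion could not be checked from counts. In these bulk samples, fewer cells of a type and less RNA per cell cannot be told apart.

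The libraries held 7603551 to 14026594 counts, of which the members took 0.234% to 0.426%. Levels are CPM, counts scaled to a common library size and corrected with trimmed mean of M-values factors. The 8 CD8 T cell genes summed to 4223 to 5920 CPM and none of them was at 0 in all libraries. *Klrg1*, the SLEC marker, was at 1.34 to 3.74 CPM in MPEC libraries and 132 to 322 CPM in SLEC libraries, while *Il7r*, the MPEC marker, was at 759.8 to 1037 CPM in MPEC and 14.2 to 71.7 CPM in SLEC. The sum of the 17 B cell markers was 792 and 3080 CPM in the WT libraries of day 14 SLEC, 427 and 149 CPM in WT MPEC and 25.7 to 142.5 CPM in the other 8 libraries. In the marker lists of plasma cells (63.6 to 144.6 CPM), monocytes and macrophages (216 to 477 CPM), neutrophils (0 to 71.0 CPM) and erythroid cells (0 to 108 CPM) no gene was at 0 in all libraries.

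As background, the 20S core of the proteasome is a barrel of alpha and beta rings. The beta subunits encoded by *Psmb5*, *Psmb6* and *Psmb7* cut peptide bonds inside it. Cells of the immune system, and other cells exposed to interferon gamma, replace them with the immunoproteasome subunits of *Psmb8*, *Psmb9* and *Psmb10*, and cap the core with the PA28 activator made from *Psme1* and *Psme2*. The 19S cap instead recognises, unfolds and feeds in ubiquitin-tagged proteins. In T cells the immunoproteasome is known for shaping the peptides shown on MHC class I and for a part in expansion after antigen.

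The catalytic pairs sit at separate loci (GRCm38). *Psmb8* (ENSMUSG00000024338.15, chromosome 17, 34197721 to 34201454, plus strand) and *Psmb9* (ENSMUSG00000096727.3, chromosome 17, 34181987 to 34187764, minus strand) are neighbours in the MHC region. *Psmb5* (ENSMUSG00000022193.7) lies on chromosome 14, 54614119 to 54618022, minus strand. *Psmb6* (ENSMUSG00000018286.6) lies on chromosome 11, 70525367 to 70527858, plus strand. *Psmb10* (ENSMUSG00000031897.9) lies on chromosome 8, 105935735 to 105938444, minus strand, and *Psmb7* (ENSMUSG00000026750.6) on chromosome 2, 38588036 to 38644087, minus strand. *Psme1* (ENSMUSG00000022216.17, chromosome 14, 55578123 to 55581529, plus strand) and *Psme2* (ENSMUSG00000079197.10, chromosome 14, 55587441 to 55591113, minus strand) are close neighbours.

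Promoter windows from RefSeq (GRCm38.p6; 250 bases before to 50 after the annotated start) were found for 42 of the 50 members. Those of 2 immunoproteasome subunits, of their constitutive counterparts and of *Psme1* are shown, because the values below set these genes against each other. Each is written 5′ to 3′ on the gene's own strand, and capitals mark a motif match.
Psmb8 (chr17:34197945-34198244, plus): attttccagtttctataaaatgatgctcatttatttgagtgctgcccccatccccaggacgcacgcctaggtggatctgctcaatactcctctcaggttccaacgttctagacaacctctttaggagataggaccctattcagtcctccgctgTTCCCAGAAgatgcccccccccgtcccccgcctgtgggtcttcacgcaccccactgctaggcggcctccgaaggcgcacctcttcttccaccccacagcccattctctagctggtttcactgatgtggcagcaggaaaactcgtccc
Psmb9 (chr17:34187281-34187580, minus): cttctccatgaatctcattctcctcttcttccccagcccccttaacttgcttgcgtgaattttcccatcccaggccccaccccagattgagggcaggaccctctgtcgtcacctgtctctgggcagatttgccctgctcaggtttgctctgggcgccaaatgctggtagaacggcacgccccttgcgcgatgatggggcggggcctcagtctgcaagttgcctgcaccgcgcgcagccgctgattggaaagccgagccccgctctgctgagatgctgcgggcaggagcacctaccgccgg
Psmb5 (chr14:54617946-54618245, minus): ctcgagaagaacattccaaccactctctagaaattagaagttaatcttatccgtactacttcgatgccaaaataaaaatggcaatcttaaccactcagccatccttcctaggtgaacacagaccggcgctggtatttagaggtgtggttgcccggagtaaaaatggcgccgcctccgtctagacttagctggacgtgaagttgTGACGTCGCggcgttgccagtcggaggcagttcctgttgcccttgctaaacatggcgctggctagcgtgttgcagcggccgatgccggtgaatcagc
Psmb6 (chr11:70525107-70525406, plus): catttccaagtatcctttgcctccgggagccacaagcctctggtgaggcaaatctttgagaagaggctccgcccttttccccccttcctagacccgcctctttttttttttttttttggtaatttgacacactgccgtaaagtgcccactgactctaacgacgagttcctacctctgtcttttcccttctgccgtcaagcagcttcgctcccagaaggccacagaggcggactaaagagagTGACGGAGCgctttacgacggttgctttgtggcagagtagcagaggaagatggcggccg
Psme1 (chr14:55578244-55578543, plus): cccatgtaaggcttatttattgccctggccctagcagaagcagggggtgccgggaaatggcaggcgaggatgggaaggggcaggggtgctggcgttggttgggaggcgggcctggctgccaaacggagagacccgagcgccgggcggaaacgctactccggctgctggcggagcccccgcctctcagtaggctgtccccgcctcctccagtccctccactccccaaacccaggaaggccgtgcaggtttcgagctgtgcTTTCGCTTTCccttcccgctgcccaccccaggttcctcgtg

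Letters of 3 motifs were searched on both strands. The interferon gamma-activated site (GAS, TTCNNNGAA) was in 8.3% of all 32851 windows, and in those of *Psmb8*, *Psmd2* and *Psmg1*. In *Psmb8* it began at position -97, counted from the annotated start as 0. The interferon-stimulated response element (ISRE, GAAA, any 2 bases, GAAA) was in 3.44% of all windows, and among members in *Psmb3*, *Psmd4*, *Psmd9*, *Psmg4* and *Psme1*, where it began at position 9 on the opposite strand. The antioxidant response element (ARE, TGACNNNGC), a letter pattern shared by the NFE2 family that controls constitutive proteasome genes, was in 12.4% of all windows. Members with it were *Psmb5* (position -47), *Psmb6* (position -9), *Psmc6*, *Psmd9*, *Psmd12* and *Psme4*. The windows of *Psmb9*, *Psmb10* and *Psme2* held none of the 3. Of the 5 genes with ISRE letters, *Psme1* alone was in the immunoproteasome set. Among the 42 members with a window, 3 had GAS, 5 ISRE and 6 ARE letters, and these counts were not tested against all windows. Most member windows held none of the 3 motifs, unlike most of those shown.

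Levels were compared between genes only per length, as CPM per kilobase of annotated exon (mean over the 12 libraries). *Psme1* stood highest at 144 CPM per kilobase and *Psmb8* next at 88.0, ahead of the ubiquitin receptor *Psmd4* at 63.1, the alpha subunit *Psma6* at 54.5 and the ATPase *Psmc3* at 51.7. Immunoproteasome *Psmb10* was at 40.7, against 11.9 for its constitutive counterpart *Psmb7*. *Psmb8* at 88.0 stood against 7.15 for *Psmb5*, whereas *Psmb9* at 17.2 was below *Psmb6* at 29.3. The length counts each exon base of any annotated transcript, 3660 for *Psmb9* and 1872 for *Psmb6*, so the order of genes depends on it. Before this division *Psmb9* had more CPM than *Psmb6* in every MPEC and day 7 SLEC library. On day 14 this held in WT SLEC replicate 2 but not in the other SLEC libraries. *Psme2*, the partner of *Psme1* in the activator, was at 11.6. Assembly chaperones were low, down to 1.67 for *Psmg3*, which had 18 to 99 counts per library.

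**Figure D1:**
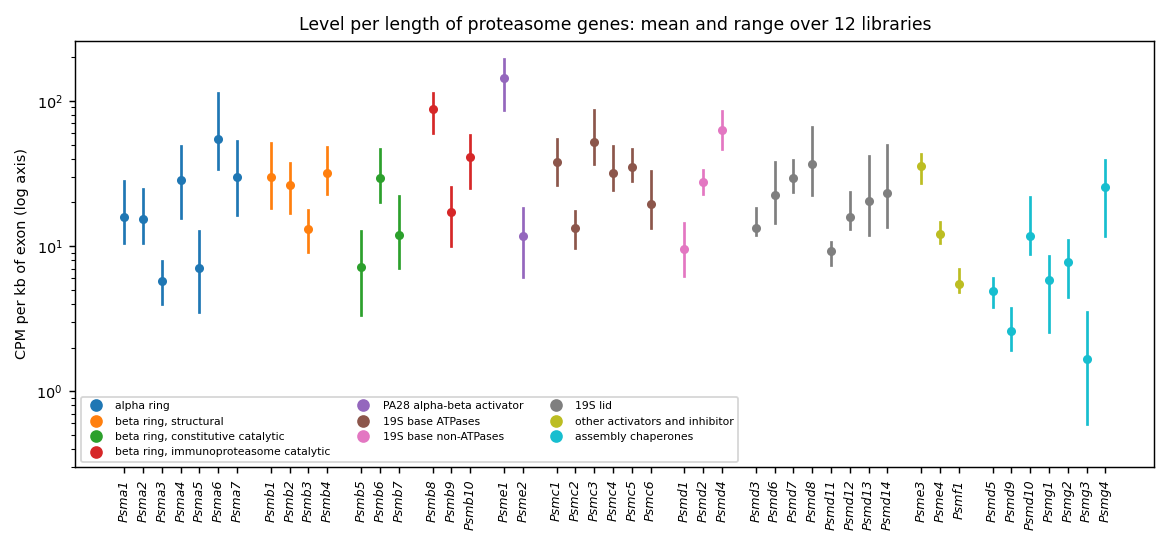
Level per kilobase of annotated exon (log axis) of the 46 tested members with an assigned role, with the mean as a point and the lowest to highest of the 12 libraries as a line. *Psme1* and *Psmb8* stand above all others by mean, and chaperones of assembly take the lowest values.

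Reads can be shared with copies and overlapping genes, so some of these levels are uncertain. Of the 50-base stretches in the transcripts of *Psmb5*, 54.1% also occur in another gene; the share was 69.3% for *Psme2b*, 50% for *Psma5*, 28.3% for *Psme2* and 11.9% for *Psmb8*. Exons of *Psmb8* overlap those of another gene on the opposite strand over 14.7% of their bases (*Gm20496*) and those of *Psmb9* over 5.79% (*Tap1*). The kit keeps strand, but no source used here gives the strand setting of the counting. *Psmb5* had 22 to 129 counts per library, the fewest of the tested catalytic subunits.

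Of the immunoproteasome genes, all but *Psmb9* had their lowest 4 values in day 14 SLEC. *Psme1* was at 365 and 401 CPM in KO and 379.5 and 415 CPM in WT cells among MPEC, 212 and 189.5 CPM (KO) and 225 and 218 CPM (WT) among SLEC of day 14, and 329 and 429 CPM (KO) and 285 and 376 CPM (WT) among SLEC of day 7. The 4 day 14 SLEC libraries lay below all others, and MPEC and day 7 SLEC overlapped. *Psmb8*, which replaces *Psmb5* in the core, was at 318 and 374 CPM in KO and 333 and 381 CPM in WT cells among MPEC, 218 and 202 CPM (KO) and 224 and 229 CPM (WT) among SLEC of day 14, and 329 and 370.2 CPM (KO) and 232 and 361 CPM (WT) among SLEC of day 7. Again the day 14 SLEC libraries were the lowest 4, with WT SLEC day 7 replicate 1 next. *Psmb10*, which replaces *Psmb7*, was at 72.6 and 99.2 CPM in KO and 74.9 and 74.4 CPM in WT cells among MPEC, 46.2 and 43.0 CPM (KO) and 57.0 and 49.2 CPM (WT) among SLEC of day 14, and 83.8 and 84.1 CPM (KO) and 61.8 and 87.2 CPM (WT) among SLEC of day 7, and day 14 SLEC did not overlap the other groups.

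*Psme2* was at 20.1 and 21.2 CPM in KO and 22.2 and 32.2 CPM in WT cells among MPEC, 13.7 and 10.7 CPM (KO) and 14.4 and 14.4 CPM (WT) among SLEC of day 14, and 21.6 and 30.4 CPM (KO) and 23.1 and 22.4 CPM (WT) among SLEC of day 7, with the same split between day 14 SLEC and the rest. *Psmb9*, which replaces *Psmb6*, was at 55.9 and 54.4 CPM in KO and 61.0 and 63.0 CPM in WT cells among MPEC, 36.8 and 37.1 CPM (KO) and 43.7 and 65.3 CPM (WT) among SLEC of day 14, and 89.4 and 93.1 CPM (KO) and 72.3 and 83.0 CPM (WT) among SLEC of day 7. Here WT SLEC day 14 replicate 2, the library with the highest B cell sum, was above every MPEC library.

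The constitutive catalytic subunits did not separate MPEC from day 14 SLEC. *Psmb6* was at 38.2 and 37.8 CPM in KO and 52.5 and 56.0 CPM in WT cells among MPEC, 46.7 and 37.5 CPM (KO) and 49.4 and 41.4 CPM (WT) among SLEC of day 14, and 68.5 and 87.0 CPM (KO) and 64.0 and 78.3 CPM (WT) among SLEC of day 7, and MPEC and day 14 SLEC overlapped. *Psmb7* was at 24.1 and 41.1 CPM in KO and 31.3 and 41.1 CPM in WT cells among MPEC, 37.7 and 34.8 CPM (KO) and 32.4 and 25.1 CPM (WT) among SLEC of day 14, and 43.0 and 75.4 CPM (KO) and 51.7 and 50.4 CPM (WT) among SLEC of day 7; again day 7 SLEC was highest and the other groups overlapped. *Psmb5* was at 7.39 and 4.51 CPM in KO and 8.16 and 3.86 CPM in WT cells among MPEC, 3.95 and 3.02 CPM (KO) and 6.26 and 4.94 CPM (WT) among SLEC of day 14, and 9.6 and 11.3 CPM (KO) and 6.91 and 7.22 CPM (WT) among SLEC of day 7, and MPEC and day 14 SLEC overlapped.

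**Figure D2:**
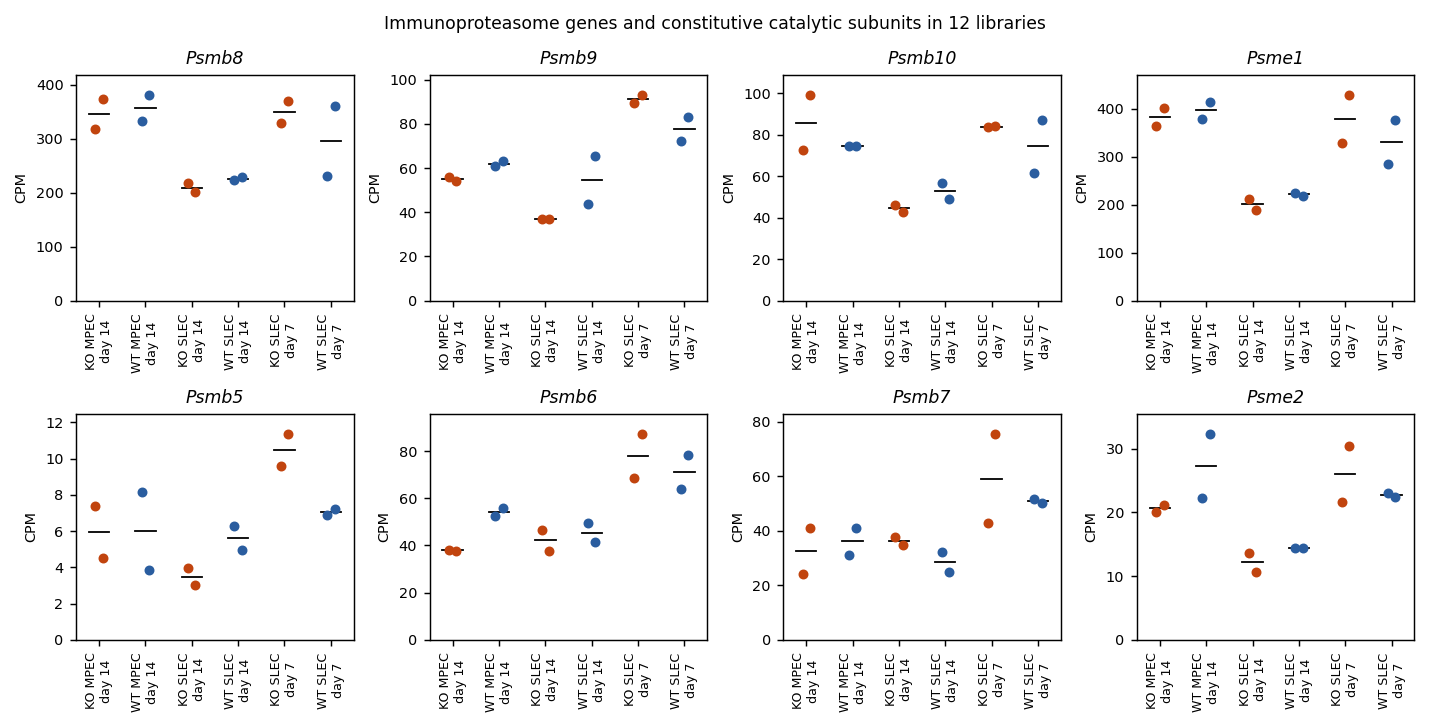
CPM of the 5 immunoproteasome genes and the 3 constitutive catalytic subunits by group; points are the 2 libraries of a group (KO red, WT blue) and bars their mean. In *Psmb8*, *Psmb10*, *Psme1* and *Psme2* the 4 day 14 SLEC libraries are the lowest, while *Psmb6* and *Psmb7* are as low in MPEC as in day 14 SLEC.

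Between day 7 and day 14 SLEC contract after clearance of the infection, and the day comparison asks how proteasome RNA differs between these days. Most of the proteasome fell on day 14: averaged over both genotypes, 33 of 48 members were lower and 0 higher. Of all genes tested, 13.7% were called lower, 11.4% higher and 25.1% in either direction. The members' median log2 change was -0.67, against 0.02 over all genes. In 31 of 48 members all 4 day 14 libraries lay below all 4 day 7 libraries, as they did in 12.6% of all genes (11.1% the other way). Calls are at an adjusted p under 0.05 in edgeR's quasi-likelihood test, with Benjamini-Hochberg adjustment, and log2 changes are given ± their standard error.

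The smallest p-values belonged to genes of the lid of the 19S cap. *Psmd8*, a lid subunit, was at 79.1 and 77.1 CPM in KO and 87.9 and 85.8 CPM in WT SLEC on day 14, against 171 and 201 CPM in KO and 172 and 184 CPM in WT SLEC on day 7. The log2 change was -1.14 ± 0.10 (adjusted p = 5.6e-07). *Psmd14*, the deubiquitinase that removes ubiquitin chains from substrates, was at 46.2 and 44.9 CPM in KO and 43.9 and 38.2 CPM in WT SLEC on day 14, against 86.6 and 139.9 CPM in KO and 89.0 and 97.5 CPM in WT SLEC on day 7. Its log2 change was -1.25 ± 0.14 (adjusted p = 5.5e-06). *Psmd13*, also of the lid, was at 49.5 and 44.1 CPM in KO and 58.2 and 56.8 CPM in WT SLEC on day 14, against 96.1 and 141 CPM in KO and 97.5 and 104 CPM in WT SLEC on day 7. It fell by 1.07 ± 0.13 on the log2 scale (adjusted p = 1.2e-05). In all 3 genes every day 14 library was below every day 7 library.

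The alpha ring, which forms the gate of the core, fell in all 7 of its genes (median log2 change -0.99). *Psma1* was at 31.0 and 34.2 CPM in KO and 36.1 and 33.7 CPM in WT SLEC on day 14, against 66.4 and 83.2 CPM in KO and 63.0 and 64.0 CPM in WT SLEC on day 7. Its log2 change was -1.03 ± 0.13 (adjusted p = 1.6e-05). *Psma2* was at 43.4 and 40.8 CPM in KO and 39.4 and 38.7 CPM in WT SLEC on day 14, against 80.7 and 90.6 CPM in KO and 63.5 and 84.5 CPM in WT SLEC on day 7. Its log2 change was -0.97 ± 0.13 (adjusted p = 2.5e-05), and the other 5 fell by 0.68 (*Psma3*) to 1.10 (*Psma5*).

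The beta ring fell as well, in 4 of 4 structural subunits (median -0.87), 3 of 3 constitutive catalytic subunits (median -0.76) and 3 of 3 immunoproteasome catalytic subunits (median -0.70). *Psmb4*, a structural subunit, was at 45.5 and 46.2 CPM in KO and 46.6 and 44.7 CPM in WT SLEC on day 14, against 81.0 and 93.8 CPM in KO and 84.2 and 84.4 CPM in WT SLEC on day 7, a log2 change of -0.91 ± 0.12 (adjusted p = 2.1e-05). Among catalytic subunits the log2 change was -0.76 ± 0.13 (adjusted p = 0.00034) for *Psmb6*, -0.76 ± 0.19 (adjusted p = 0.0088) for *Psmb7* and -0.95 ± 0.30 (adjusted p = 0.026) for *Psmb5*. Their immunoproteasome counterparts showed -0.91 ± 0.13 (adjusted p = 6.7e-05) for *Psmb9*, -0.70 ± 0.14 (adjusted p = 0.00096) for *Psmb10* and -0.56 ± 0.13 (adjusted p = 0.0031) for *Psmb8*. Both PA28 genes fell too, *Psme1* with -0.75 ± 0.12 (adjusted p = 0.00014) and *Psme2* with -0.86 ± 0.18 (adjusted p = 0.0023). The median log2 change was -0.75 over the 5 immunoproteasome genes and -0.61 over the other 43 tested members.

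In the core without the immunoproteasome subunits 14 of 14 genes fell (median -0.96), and in the 19S cap 11 of 17 (median -0.44). Of the ATPases in the base of the cap, which unfold the substrate, 4 of 6 fell (median -0.46), with -0.66 ± 0.15 (adjusted p = 0.0027) for *Psmc6*. Neither *Psmc2* (-0.30 ± 0.13, adjusted p = 0.096) nor *Psmc5* (-0.19 ± 0.17, adjusted p = 0.45) passed the test. Of the non-ATPase scaffold and receptor subunits 1 of 3 fell, *Psmd1* with -0.44 ± 0.15 (adjusted p = 0.038), while *Psmd4* had -0.29 ± 0.11 (adjusted p = 0.067) and *Psmd2* -0.09 ± 0.13 (adjusted p = 0.64). In the lid 6 of 8 fell, and *Psmd3* (-0.26 ± 0.13, adjusted p = 0.17) and *Psmd11* (0.01 ± 0.12, adjusted p = 0.96) did not pass.

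Of the regulators other than PA28 alpha-beta, none of *Psme3*, the nuclear PA28 gamma (-0.21 ± 0.12, adjusted p = 0.23), *Psme4*, the PA200 activator (0.01 ± 0.11, adjusted p = 0.97), and *Psmf1*, an inhibitor of the core (0.12 ± 0.14, adjusted p = 0.56), passed. Of the 7 assembly chaperones 2 fell, *Psmg4* with -0.89 ± 0.20 (adjusted p = 0.0036) and *Psmg2* with -0.76 ± 0.20 (adjusted p = 0.0098). *Psmc3ip* fell by 1.19 ± 0.34 on the log2 scale (adjusted p = 0.016), and *Psme2b* had 0.37 ± 0.24 (adjusted p = 0.29).

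Taken alone, KO SLEC showed 26 of 48 members lower on day 14 and 0 higher (17.2% of all genes called, 9.5% lower and 7.7% higher). WT SLEC showed 14 lower and 0 higher (9.94% called, 5.25% lower and 4.69% higher). All 5 immunoproteasome genes were called in KO, of which *Psmb9* had the largest log2 change at -1.30 ± 0.19 (adjusted p = 0.00021). In WT 1 of the 5 was called, *Psme1* at -0.58 ± 0.16 (adjusted p = 0.03), and *Psmb9* had -0.51 ± 0.18 (adjusted p = 0.08). The difference between the genotypes is tested with the KO effects below. The KO count was 13 without KO SLEC day 7 replicate 2 and 11 without KO SLEC day 14 replicate 2, and the WT count 7 and 6 without WT SLEC day 14 replicate 1 and replicate 2. With a term for B cell RNA the WT count was 0 and that of the mean 21. WT libraries had B cell sums of 792 and 3080 CPM on day 14 and 25.7 and 94.5 CPM on day 7. The term therefore partly stands for the day in WT. The KO libraries of this comparison had B cell sums of 28.0 to 77.5 CPM.

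Genes of the cell cycle moved with the day. The 16 genes of the G2 and M phase list summed to 94.8 and 151.6 CPM in KO and 156 and 201 CPM in WT SLEC on day 14, against 2744 and 2598 CPM in KO and 1188 and 3231 CPM in WT SLEC on day 7; all 16 fell. Mitochondrially encoded genes took 8.65% to 10.9% of counts on day 14, against 13.3% to 20.6% on day 7. With mitochondrially encoded genes left out, 33 members fell in the mean, all of them among the 33 above, 26 in KO and 13 in WT. The part of the G2 and M genes in the fall of the proteasome genes was not tested. WT SLEC day 7 replicate 1 had the lowest G2 and M sum of the day 7 libraries.

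Of 20 tested genes that assemble, bind or control the proteasome, 4 fell and 4 rose on day 14. *Pomp*, the chaperone that matures the beta ring, was at 59.0 and 50.7 CPM in KO and 69.7 and 53.5 CPM in WT SLEC on day 14, against 123 and 159.9 CPM in KO and 131 and 138 CPM in WT SLEC on day 7. Its log2 change was -1.24 ± 0.12 (adjusted p = 1.6e-06). *Sem1*, a small lid subunit outside the Psm names, was at 99.0 and 78.1 CPM in KO and 101 and 90.7 CPM in WT SLEC on day 14, against 164 and 237 CPM in KO and 173 and 169.9 CPM in WT SLEC on day 7. Its day 14 level was 0.499 times that of day 7 (adjusted p = 2e-05). *Nfe2l1*, the transcription factor that raises constitutive proteasome genes when proteasome activity falls short, went the other way. It was at 125 and 112 CPM in KO and 115 and 109.5 CPM in WT SLEC on day 14, against 66.9 and 70.1 CPM in KO and 83.8 and 61.4 CPM in WT SLEC on day 7, a log2 change of 0.71 ± 0.12 (adjusted p = 0.00021). *Ubqln2* and *Ubqln4*, shuttles that carry ubiquitin-tagged proteins, and *Ddi2*, the protease that activates the *Nfe2l1* product, also rose (log2 change 0.64, 0.71 and 0.51).

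In the list of MHC class I antigen processing, 1 of 15 genes fell and 0 rose. This was *Pdia3*, a chaperone of peptide loading, with -0.52 ± 0.15 (adjusted p = 0.02). Among genes of the list that did not pass was *Tap1*, a subunit of the peptide transporter and neighbour of *Psmb9*, with -0.16 ± 0.12 (adjusted p = 0.34). *B2m* had -0.32 ± 0.12 (adjusted p = 0.055), close to the threshold. Values were -0.15 ± 0.11 (adjusted p = 0.33) for *Nlrc5* and -0.06 ± 0.12 (adjusted p = 0.77) for *Irf1*.

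**Figure D3:**
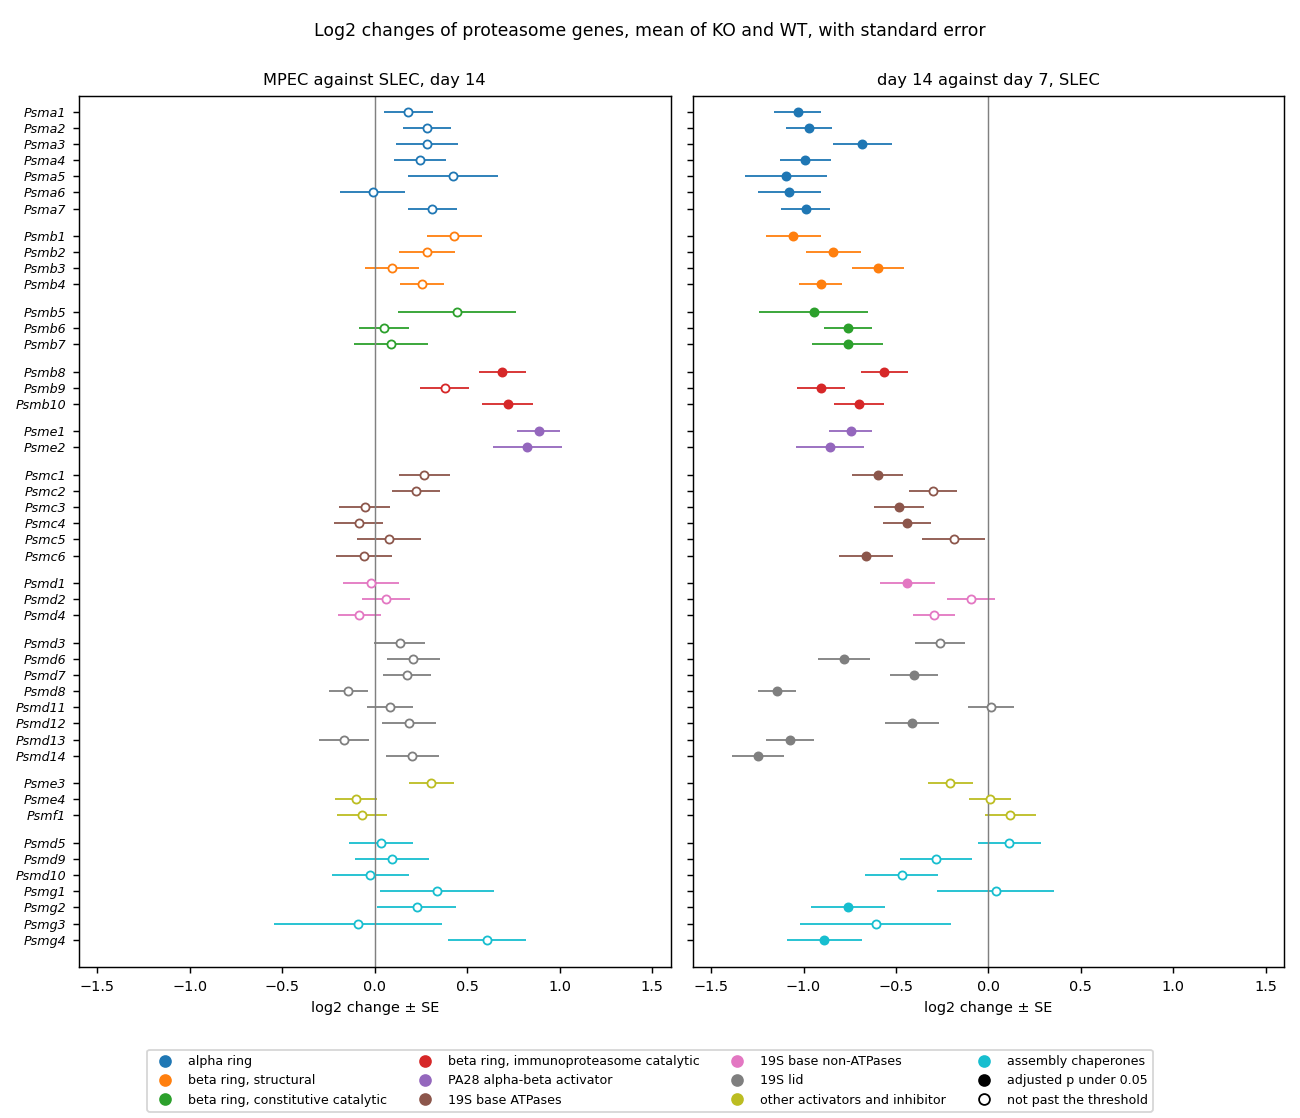
Log2 change (point) and standard error (line) of the 46 tested members with an assigned role, MPEC against SLEC on day 14 (left) and SLEC on day 14 against day 7 (right), both as the mean of KO and WT; filled points passed the adjusted p of 0.05. On the left the only filled points are *Psmb8*, *Psmb10*, *Psme1* and *Psme2*, and on the right 32 of the 46 are filled, all below 0; the panels share the day 14 SLEC libraries.

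MPEC and SLEC of the same day were compared to see how the population that gives rise to memory differs. Averaged over both genotypes, 4 of 48 members rose in MPEC and 0 fell, and these 4 were all immunoproteasome genes. Of all genes tested 7.14% were called higher, 5.99% lower and 13.1% in either direction. This comparison uses the same day 14 SLEC libraries as the day comparison, so the values of both are not independent of each other. *Psme1* had a log2 change of 0.89 ± 0.12 (adjusted p = 3.7e-05), *Psmb8* 0.69 ± 0.13 (adjusted p = 0.00095), *Psmb10* 0.72 ± 0.14 (adjusted p = 0.0013) and *Psme2* 0.82 ± 0.19 (adjusted p = 0.0056). For these 4 genes every MPEC library was above every SLEC library of day 14.

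The fifth, *Psmb9*, had 0.38 ± 0.13 (adjusted p = 0.07) and overlapped through WT SLEC day 14 replicate 2. The median over the 5 was 0.72, against 0.09 over the other 43 tested members and -0.01 over all genes. None of the 43 passed; the smallest p-values belonged to the chaperone *Psmg4* (0.61 ± 0.21, adjusted p = 0.066) and the structural subunit *Psmb1* (0.43 ± 0.15, adjusted p = 0.067). At an unadjusted p under 0.05 were 6 of the 43. *Psmb6* had 0.05 ± 0.13 (adjusted p = 0.86) and *Psmb7* 0.09 ± 0.20 (adjusted p = 0.83), while *Psmb5*, with few counts, had 0.44 ± 0.32 (adjusted p = 0.43). The 19S cap had 0 of 17 called (median 0.08) and the 20S core without the immunoproteasome subunits 0 of 14 (median 0.27). *Psme3*, the third PA28 gene, had 0.31 ± 0.12 (adjusted p = 0.11). In 11 of 48 members all MPEC libraries lay above all SLEC libraries, as in 10.4% of all genes (9.05% the other way).

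Each genotype alone gave 3 called members. In KO these were *Psme1* (0.93 ± 0.17, adjusted p = 0.0019), *Psmb10* (0.94 ± 0.20, adjusted p = 0.0068) and *Psmb8* (0.72 ± 0.18, adjusted p = 0.022), where 2.9% of all genes were called higher, 2.21% lower and 5.11% in either direction. In WT they were *Psme1* (0.84 ± 0.16, adjusted p = 0.0036), *Psmb8* (0.66 ± 0.18, adjusted p = 0.028) and *Psme2* (0.90 ± 0.25, adjusted p = 0.029), where 3.66% were called higher, 4.3% lower and 7.96% in either direction. With a term for B cell RNA 1 member was called in each genotype and 5 in the mean. The KO count was 1 without KO SLEC day 14 replicate 1 or KO MPEC replicate 2 and 0 without KO SLEC day 14 replicate 2; the WT count was 1 without WT SLEC day 14 replicate 1 and 0 without replicate 2 of WT SLEC day 14 or WT MPEC. The 4 calls in the mean were kept whichever library was left out. B cell sums in KO were higher in MPEC, at 127 and 142.5 CPM against 69.9 and 28.0 CPM in SLEC. In WT they were lower in MPEC, at 427 and 149 CPM against 792 and 3080 CPM in SLEC. The log2 change was 0.93 for *Psme1* and 0.72 for *Psmb8* in KO, against 0.84 and 0.66 in WT. G2 and M genes summed to 101 to 141 CPM in MPEC and 94.8 to 201 CPM in SLEC on day 14. Mitochondrially encoded genes took 11.8% to 15% of counts in MPEC and 8.65% to 10.9% in SLEC on day 14, without overlap. With these genes left out 4 members rose in the mean, all of the 4 above.

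Markers of other cells also differed between MPEC and SLEC. In WT, 4 of the 9 tested monocyte and macrophage markers fell in MPEC, with log2 changes of -3.76 ± 0.58 (adjusted p = 0.00037) for *Csf1r*, -2.60 ± 0.51 (adjusted p = 0.0033) for *Mpeg1*, -4.02 ± 0.91 (adjusted p = 0.0074) for *C1qb* and -2.98 ± 0.79 (adjusted p = 0.04) for *Lyz2*. In KO none of the 9 was called. The summed level of all 11 was 216 to 281 CPM in MPEC and 235 to 252.5 CPM in SLEC on day 14. In WT it was 224 and 216 CPM in MPEC against 249 and 252.5 CPM in SLEC, so genes other than these 4 carried most of it. The sum is therefore no measure of the content of these cells. Of the plasma cell list *Jchain* fell in WT MPEC (-3.97 ± 0.90, adjusted p = 0.013), and *Prdm1*, which effector T cells also express, fell in the mean of the genotypes (-1.78 ± 0.13, adjusted p = 3.2e-08). That list summed to 63.6 to 68.9 CPM in MPEC and 129 to 144.6 CPM in SLEC on day 14. The part of these cells in the rise of the immunoproteasome genes was not tested.

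The 5 immunoproteasome genes together took a larger part of the members' counts in MPEC. Their share was 28.8% and 29.5% in KO and 28.4% and 29.6% in WT MPEC, against 20% and 19.7% in KO and 20.9% and 22.2% in WT SLEC on day 14. On day 7 it was 23.4% and 21.6% in KO and 19.1% and 23% in WT SLEC. Each MPEC library was above all 8 SLEC libraries, and no test was run on the share. *Psme1* and *Psmb8* gave most of the counts of the 5 genes in every library, so the share mainly follows these genes. Summed, the 5 genes stood at 831 to 966 CPM in MPEC and 482 to 576 CPM in day 14 SLEC. The summed 14 genes of the constitutive core were also higher in MPEC, at 589 to 658 CPM against 475 to 567 CPM in day 14 SLEC. These ranges did not overlap either.

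Ratios within a library give the same genes without the scaling of libraries. The sign of a log2 ratio depends on the exon lengths used, while its difference between libraries does not. The log2 ratio of *Psme1* to *Psme3*, on CPM per kilobase, was 2.13 and 2.14 in KO and 2.21 and 2.26 in WT MPEC, against 1.56 and 1.66 in KO and 1.54 and 1.68 in WT SLEC on day 14. On day 7 it was 1.98 and 2.55 in KO and 2.06 and 1.99 in WT SLEC. This ratio rests on *Psme1*, the member with the smallest p in MPEC against SLEC, so it is no separate evidence. The mean log2 ratio of the 3 catalytic pairs (*Psmb8* to *Psmb5*, *Psmb9* to *Psmb6*, *Psmb10* to *Psmb7*) was 1.90 and 2.10 in KO and 1.65 and 1.93 in WT MPEC. It was 1.29 and 1.49 in KO and 1.31 and 1.76 in WT SLEC on day 14, and 1.52 and 1.14 in KO and 1.21 and 1.55 in WT SLEC on day 7. WT SLEC day 14 replicate 2 overlapped WT MPEC here, and the SD within groups was 0.23; the score was not tested. The single pairs did not all lie higher in MPEC. *Psmb8* to *Psmb5* averaged 3.99 in KO and 4.08 in WT MPEC, against 4.01 in KO and 3.44 in WT SLEC on day 14. *Psmb9* to *Psmb6* averaged -0.43 in KO and -0.77 in WT MPEC, against -1.15 in KO and -0.73 in WT SLEC. *Psmb10* to *Psmb7* averaged 2.43 in KO and 2.06 in WT MPEC, against 1.30 in KO and 1.90 in WT SLEC. The first pair was not higher in KO MPEC and the second not in WT MPEC.

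**Figure D4:**
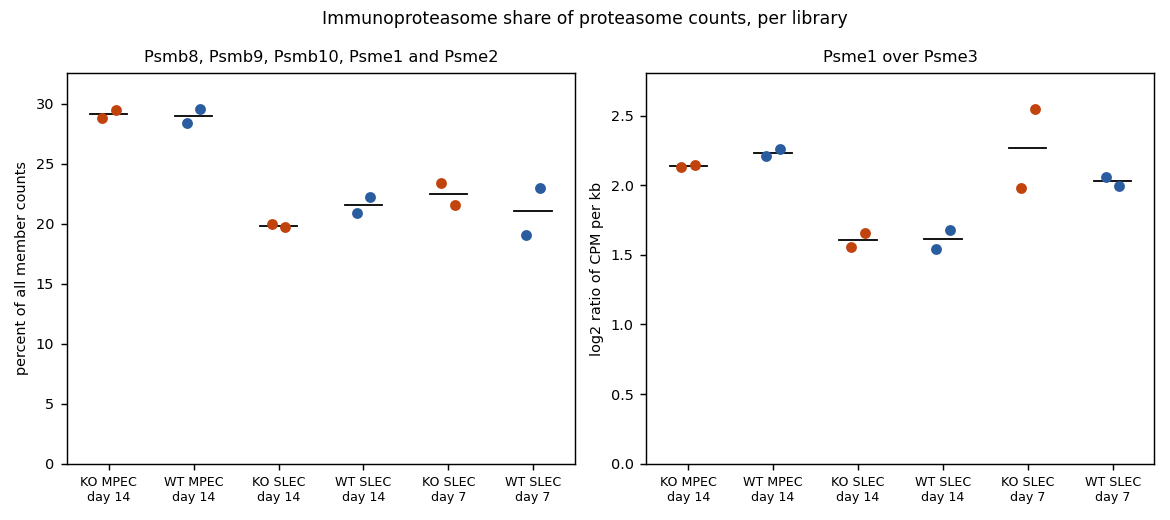
Left, percent of all member counts in *Psmb8*, *Psmb9*, *Psmb10*, *Psme1* and *Psme2*; right, log2 ratio of *Psme1* to *Psme3* per kilobase; points are the 2 libraries of each group (KO red, WT blue) and bars their mean. The MPEC shares, 28.4% to 29.6%, are above all SLEC shares, and the ratio of *Psme1* to *Psme3* is lowest in day 14 SLEC. The mean ratio of the catalytic pairs, in which WT SLEC of day 14 overlapped WT MPEC, is not plotted.

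In the list of antigen processing 5 of 15 genes rose in MPEC and 1 fell; 4 of the 5 are given here. *Erap1*, a peptidase that trims peptides for MHC class I, had 0.63 ± 0.11 (adjusted p = 0.00088), and *Tapbpl*, a peptide editor, 0.93 ± 0.17 (adjusted p = 0.0013). *Tapbp* had 0.51 ± 0.12 (adjusted p = 0.0095) and *B2m*, the light chain of MHC class I, 0.39 ± 0.12 (adjusted p = 0.034). *Nlrc5*, the transactivator of MHC class I genes, fell by 0.38 ± 0.11 on the log2 scale (adjusted p = 0.026). *Tap1*, whose promoter region adjoins *Psmb9*, had -0.01 ± 0.12 (adjusted p = 0.97), and *Irf1* -0.07 ± 0.12 (adjusted p = 0.76). Of the genes that assemble, bind or control the proteasome 1 of 20 rose, the ubiquitin shuttle *Rad23b* (0.38 ± 0.12, adjusted p = 0.033), with 0.18 ± 0.13 (adjusted p = 0.42) for *Pomp* and -0.16 ± 0.11 (adjusted p = 0.42) for *Nfe2l1*.

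A comparison chosen after seeing the data set MPEC of day 14 against SLEC of day 7, as the mean of KO and WT; population and day cannot be told apart in it. Of 48 members 24 fell and 0 rose, where 34.5% of all genes were called, 18.1% lower and 16.4% higher. The constitutive core fell in 12 of 14 genes, and the lid genes *Psmd8* and *Psmd13* fell by 1.29 ± 0.10 (adjusted p = 4.6e-08) and 1.24 ± 0.13 (adjusted p = 1.1e-06) on the log2 scale. Of the immunoproteasome genes only *Psmb9* passed, with a log2 change of -0.53 ± 0.13 (adjusted p = 0.0037). *Psme1* had 0.14 ± 0.11 (adjusted p = 0.37), *Psmb8* 0.13 ± 0.12 (adjusted p = 0.46), *Psmb10* 0.02 ± 0.13 (adjusted p = 0.93) and *Psme2* -0.03 ± 0.17 (adjusted p = 0.91). The median log2 change was 0.02 over these 5 genes and -0.51 over the other 43 tested members. It shares its libraries with the other comparisons and is no independent evidence for them.

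The knockout of Rroid2 was compared with WT in each population. No member was called in any of them. In MPEC on day 14, 0 of 48 passed where 0.0138% of all genes did. In SLEC on day 14, 0 passed where 0.539% did, and in SLEC on day 7, 0 where 0.0277% did. As the mean of the 3 populations 0 passed, against 0.083% of all genes. DESeq2 also called 0 members in each. At an unadjusted p under 0.05 there were 1, 2, 0 and 0 members in that order.

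The smallest p-values were these. In MPEC *Psmb6* had -0.51 ± 0.19 (adjusted p = 1), with KO libraries at 38.2 and 37.8 CPM and WT libraries at 52.5 and 56.0 CPM; *Psme2* came next with -0.39 ± 0.25 (adjusted p = 1). In SLEC on day 14 *Psmb9* had -0.56 ± 0.19 (adjusted p = 0.19), with KO libraries at 36.8 and 37.1 CPM and WT libraries at 43.7 and 65.3 CPM. These WT libraries had B cell sums of 792 and 3080 CPM, against 69.9 and 28.0 CPM in the KO libraries. A term for B cell RNA therefore partly stands for genotype here. The macrophage markers *Csf1r* and *Mpeg1* were also lower in KO, with -4.20 ± 0.69 (adjusted p = 0.011) and -3.97 ± 0.69 (adjusted p = 0.02). The part of the macrophage markers in the *Psmb9* value was not tested. With a term for B cell RNA the log2 change was 0.09, without WT SLEC day 14 replicate 1 it was -0.84 (adjusted p = 0.048), and without replicate 2 it was -0.24 (adjusted p = 0.95). Over all alternatives the adjusted p ran from 0.048 to 1. *Psmc3ip* had -1.32 ± 0.56 (adjusted p = 0.34) from 20 to 161 counts per library. In SLEC on day 7 *Psme2b* had 0.72 ± 0.35 (adjusted p = 1) and *Psmb5* 0.55 ± 0.36 (adjusted p = 1). As the mean of the populations *Psmb9* had -0.17 ± 0.11 (adjusted p = 0.74) and *Psmd2* 0.17 ± 0.11 (adjusted p = 0.74).

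Precision limits what these comparisons can show. The 95% interval of the log2 change lay within -1 and 1 for 46 of 48 members in MPEC, 43 in SLEC on day 14 and 44 in SLEC on day 7. For *Psmb8* it ran from -0.42 to 0.32 in MPEC, from -0.49 to 0.26 in SLEC on day 14 and from -0.13 to 0.61 in SLEC on day 7. For *Psme1* it ran from -0.39 to 0.29, from -0.49 to 0.20 and from -0.15 to 0.53 in the same order. Members' median log2 changes were -0.07 in MPEC, -0.11 in SLEC on day 14 and 0.17 in SLEC on day 7. Point values lay below 0 for 35 of 48 members in MPEC and 32 in SLEC on day 14, and above 0 for 40 in SLEC on day 7. These sign counts were not tested, and members measured in the same few libraries are not independent of each other. In MPEC both KO libraries were above both WT libraries for 1 member and below for 6, against 14.2% and 15.9% of all genes. In SLEC on day 14 these counts were 10 above and 18 below (21.9% and 25.7% of all genes), and in SLEC on day 7 they were 6 above and 1 below (11.2% and 12.2%).

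A change of the KO effect between populations was tested as an interaction, and 0 members passed. This held for SLEC on day 14 minus day 7 (0.00692% of all genes called, 2 members at an unadjusted p under 0.05) and for MPEC minus SLEC on day 14 (0% called, 0 members). *Psmb9* had the smallest p in the contrast of days, -0.79 ± 0.26 (adjusted p = 0.71), followed by *Psmc3ip* (-1.76 ± 0.69, adjusted p = 0.73). *Psmc1* had 0.51 ± 0.28 (adjusted p = 1) and *Psmc2* -0.46 ± 0.26 (adjusted p = 1) in the contrast of populations. The counts of 26 members called between the days in KO and 14 in WT are therefore not shown to differ by genotype.

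**Figure D5:**
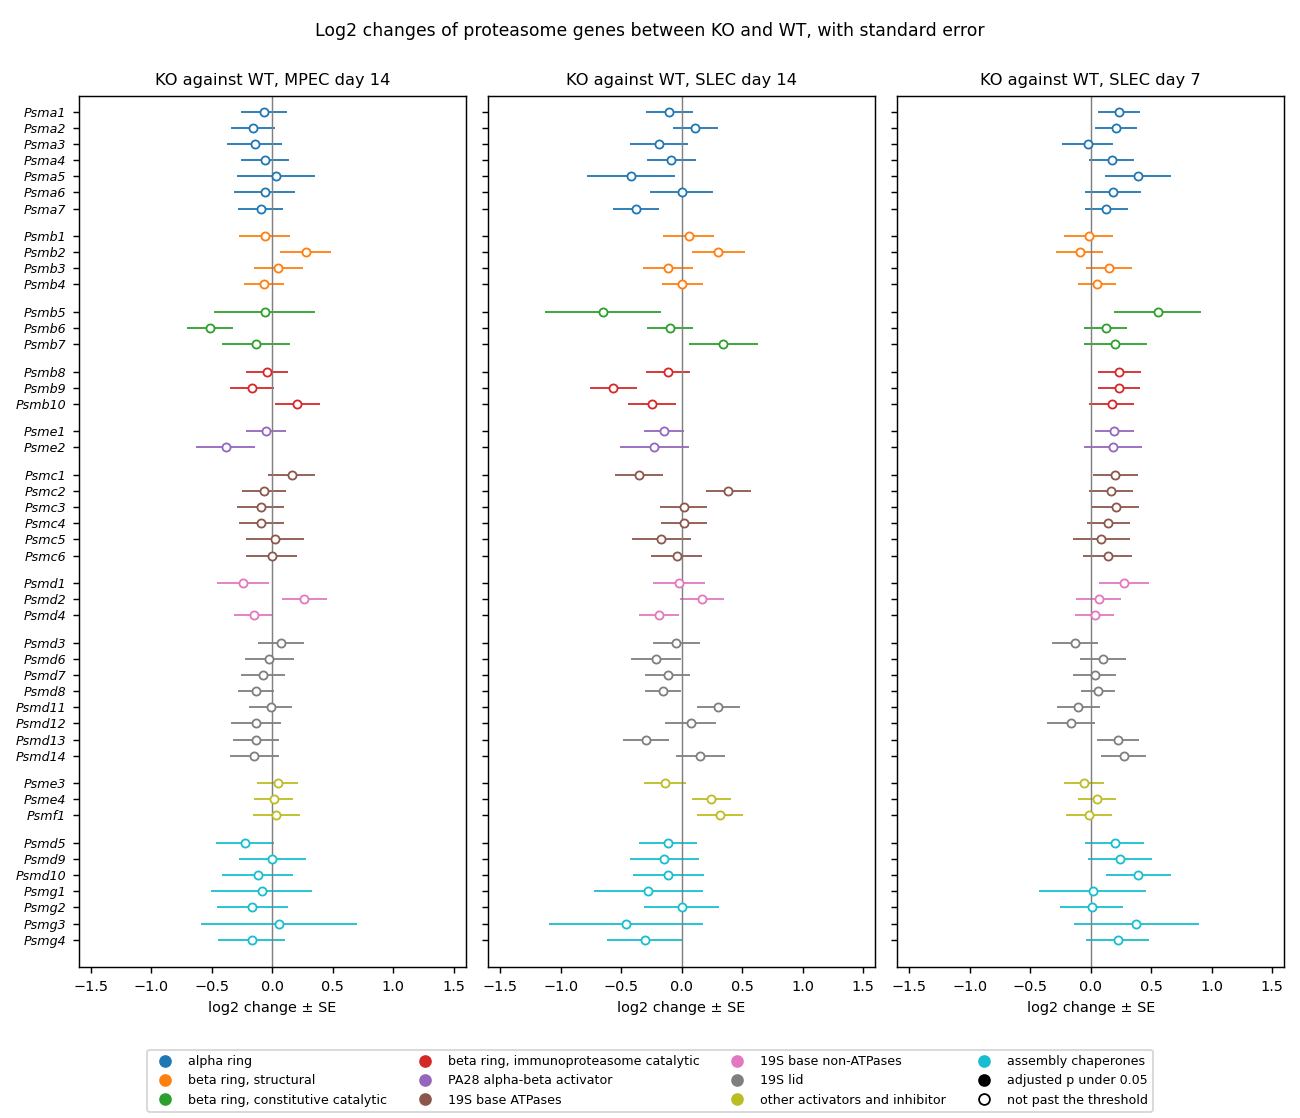
Log2 change between KO and WT (point) and standard error (line) of the 46 tested members with an assigned role in MPEC on day 14, SLEC on day 14 and SLEC on day 7; filled points would have passed the adjusted p of 0.05. No point is filled in any panel. Of all 48 tested members 13 had point values above 0 in MPEC, 16 in SLEC on day 14 and 40 in SLEC on day 7. These sign counts were not tested.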

How the data were processed

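RNA of sorted OT-I CD8 T cells was made into libraries with a stranded SMART-Seq kit and read on a NextSeq2000, per the labels' protocols. The deposited values are raw counts per gene in 1 table of 12 libraries. Alignment used STAR 2.6.1a and GRCm38 after bcl2fastq, per the submitters' processing notes. No source used here names the counting tool, the annotation or the strand setting.

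The members and gene lists were chosen with earlier results of these data known. Genes were filtered with edgeR's filterByExpr over the 6 groups, leaving 14460 of 55421 genes with at least 99.7% of each library's counts. One quasi-likelihood model (edgeR 4.0.16, R 4.3.3, limma 3.58.1, trimmed mean of M-values scaling) had 1 coefficient per group and 12 libraries, 6 residual degrees of freedom and a median prior of 11.9. P-values were adjusted by Benjamini-Hochberg over all tested genes and called below 0.05. Errors are standard errors, the log2 change divided by the square root of F. The scripts were tested on simulated data. Named members were the 5 immunoproteasome genes, *Psmb5*, *Psmb6*, *Psmb7* and, per comparison, up to 6 called members per direction by smallest p, or the 2 with the smallest p where none was called; of the other lists, up to 4 called genes and a fixed set of regulators. Other values in the text summarise roles. Values of 1 listed gene are not reported here. Gene IDs matched GENCODE M21 for 99.7% of rows, and exon lengths, loci and shared 50-base stretches come from it.

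Alternatives were DESeq2 1.42.0, its size factors, no filter, 2 groups only, each library left out, a replicate block, a term for B cell RNA and removal of mitochondrial genes. The labels do not say whether replicate numbers pair libraries.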

Additional observations from a re-analysis of the deposited data

How the results depend on the processing

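With 2 libraries per group, counts of called members depended mainly on single libraries and on the term for B cell RNA. That term gave 0 members for day 14 against day 7 in WT SLEC and 21 in the mean of genotypes, against 14 and 33. For MPEC against SLEC it gave 1 each in WT and in KO, against 3 and 3. B cell sums were 792 and 3080 CPM in WT SLEC on day 14 and 25.7 and 94.5 CPM on day 7. The term therefore partly stands for the day in WT and can remove a day difference of any origin. Of all genes, 328 were called between the days in WT with the term and 1437 without. The term also turned the KO log2 change of *Psmb9* to 0.0935 in SLEC on day 14 and 0.0709 in the mean of the populations. It turned the day change of *Zfand5*, a listed regulator called lower on day 14 in the mean of the genotypes, to 0.0529. A fit of the 2 compared groups alone gave 9 members for the day in WT and 6 for MPEC in WT. Leaving out 1 library at a time gave 6 to 16 members for the day in WT, 11 to 29 in KO and 26 to 36 in the mean; 0 to 3 for MPEC against SLEC in WT and in KO and 4 to 5 in the mean; 19 to 27 for MPEC against day 7 SLEC; and 0 to 1 for KO against WT in SLEC on day 14. Of the calls, 25 of 33 were kept in every omission for the day mean, 10 of 26 in KO, 5 of 14 in WT, 4 of 4 for the MPEC mean, and 0 of 3 in each genotype. Group differences in the mean log2 ratio of the catalytic pairs are given for all libraries, with the leave-one-out range in brackets. MPEC minus SLEC was 0.431 (0.317 to 0.545) in the mean, 0.609 (0.506 to 0.711) in KO and 0.253 (0.0248 to 0.481) in WT. Day 14 minus day 7 was 0.108 (-0.00616 to 0.222) in the mean, 0.0587 (-0.135 to 0.253) in KO and 0.157 (-0.071 to 0.385) in WT. MPEC minus day 7 SLEC was 0.538 (0.441 to 0.635). KO minus WT was 0.209 (0.0713 to 0.347) in MPEC and -0.147 (-0.375 to 0.081) in SLEC on day 14. It was -0.0486 (-0.243 to 0.145) in SLEC on day 7 and 0.00447 (-0.0715 to 0.0804) in the mean. The cause of the differences between settings was not tested.

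With the replicate number as a block the counts were 13 (day, WT), 26 (KO) and 33 (mean), 3, 3 and 4 for MPEC against SLEC, and 0 for KO against WT, where 130 of all genes were called in SLEC on day 14, against 78 without it. Deviations of same-numbered libraries correlated between -0.133 and 0.117. Such low values show no strong pairing by number, but they cannot exclude a shared animal or sort. DESeq2 kept 133 of 135 results and its size factors in edgeR 134 of 135. Members with few counts, such as *Psmb5* and *Psmg3*, are limited by depth.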
